A study of Mus musculus with 20 samples.

Results

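The insulin-like growth factor (IGF) system was followed in tumors and normal kidneys as 10 genes, found by name among the 54532 genes of the count table. They were the ligand genes Igf1 and Igf2, the receptor gene Igf1r and the binding protein genes Igfbp1 to Igfbp7. All 10 were listed and 9 passed the filter on low counts; Igf2 did not. The libraries came from 10 tumors and 10 normal kidney regions of 10 C57BL/6 mice of the Cre-less AAV model. The mice carried LSL-Cas9/+, a Cas9 and GFP cassette behind a floxed stop, and Pax8 Cre/+, which drives Cre in Pax8-expressing cells, mainly renal tubule epithelium. An adeno-associated virus (AAV) with sgRNAs against Vhl, Pbrm1, Keap1 and Tsc1 had been injected straight into the kidney. Normal kidney regions came from the same mice, so they shared the strain, both alleles and the injected animal, and none of the 20 libraries came from an uninjected mouse. The labels give no ages, and each tumor is a bulk sample that holds stromal and immune cells beside edited cells.

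IGF1 and IGF2 are peptides that bind the IGF1 receptor, a tyrosine kinase that signals through insulin receptor substrates to PI3K and AKT. Binding proteins 1 to 6 hold the ligands with high affinity, lengthen their half-life or keep them from the receptor, and proteases release the ligands by cutting the binding proteins. IGFBP7 binds IGFs weakly and is abundant in vessel walls and matrix. In the adult mouse most circulating IGF1 comes from the liver under growth hormone, and Igf2 is an imprinted fetal growth gene that is switched off in most tissues after birth.

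Total counts were 18447394 to 24902973 in tumors and 14737516 to 26679704 in normal kidneys. Levels are given as CPM, a gene's share of the counts of its library after scaling by TMM factors. Of the targeted genes, Vhl (log2 fold change -0.49, adjusted p = 0.00179) and Tsc1 (-0.61, adjusted p = 0.00871) were lower in tumors, Keap1 was higher (0.83, adjusted p = 1.30e-07) and Pbrm1 did not pass the test (-0.28, adjusted p = 0.23). Small insertions and deletions leave most reads of a gene in place, so these levels do not measure editing. Umod, a defining gene of the loop of Henle, was at 3419 to 7910 CPM in normal kidneys and at no more than 5.464 CPM in tumors. The proximal tubule gene Slc34a1 was at 139.6 to 3582 CPM in normal kidneys and 130.1 to 1845 CPM in tumors. Of 9 proximal tubule markers tested, 3 were called lower in tumors, 6 were not called and none was called higher. Among all genes tested, 23.8% were called lower. A pair of libraries stood apart. In normal kidney 9 the 20% shortest genes lay 0.99 above the median normal kidney on the log2 scale and the 20% longest fell by 1.04. Tumor 7 had the highest summed fibroblast and mural cell markers, at 8816 CPM against 206.4 to 949.9 CPM in the other tumors.

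Tumors carried more RNA of Igf1, Igfbp5, Igfbp1 and Igfbp3 than normal kidneys, and less of Igfbp2, Igfbp7 and Igfbp4. Of the 9 genes tested, 4 were higher and 3 lower at an adjusted p under 0.05 (edgeR's quasi-likelihood test, Benjamini-Hochberg adjustment over 15354 genes). Among all genes tested, 23.6% were called higher and 23.8% lower. Igf1r and Igfbp6 did not pass the test. In bulk tissue, fewer cells of a type and less RNA per cell cannot be told apart.

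**Figure D1:**
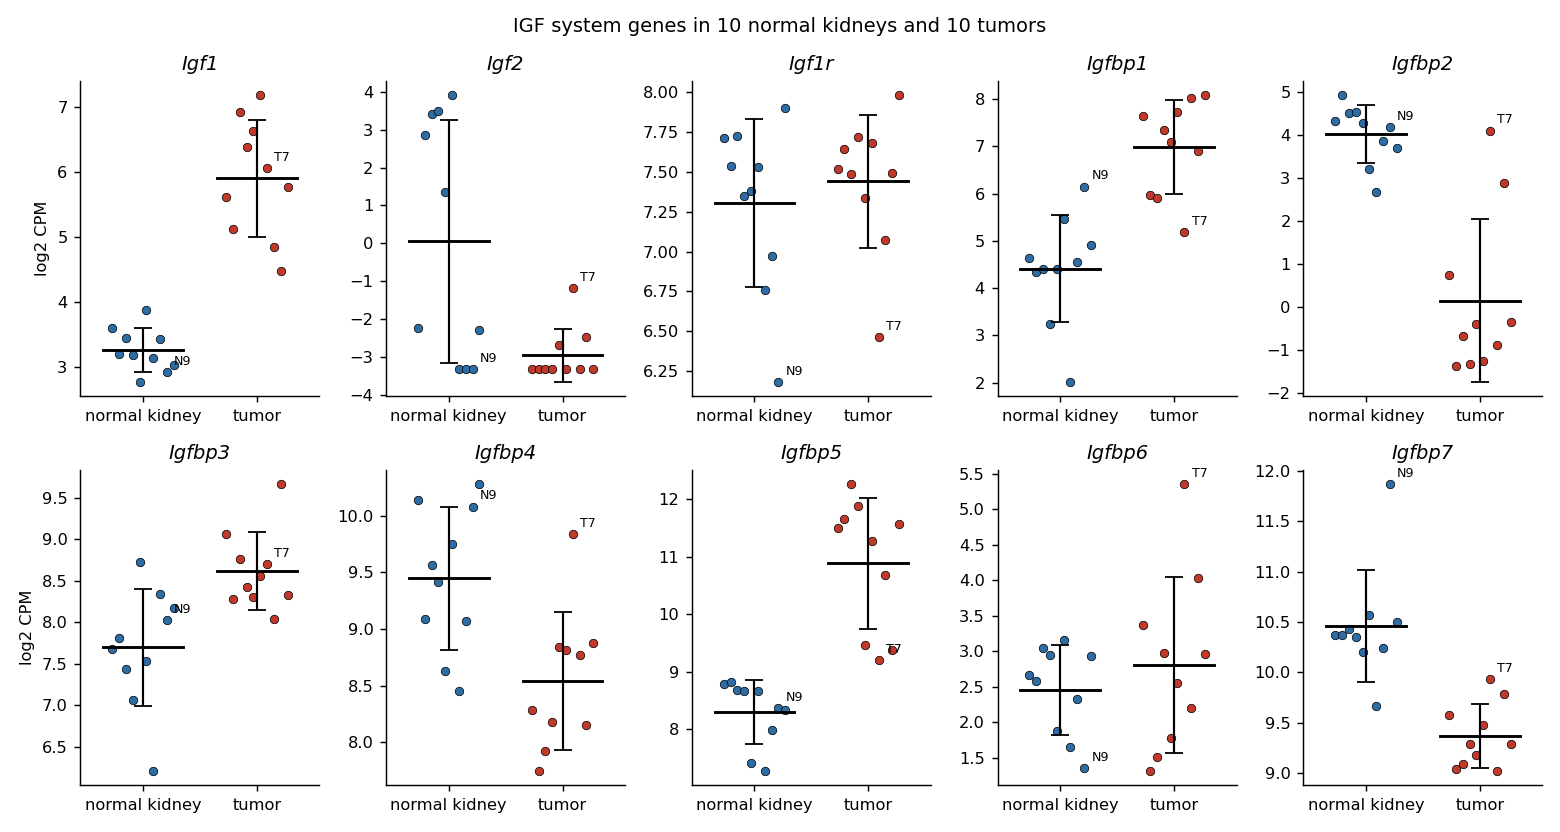
Log2 CPM of the 10 IGF system genes in each library, with points of a group ordered from replicate 1 to 10, the mean as a line and the SD as bars. Igf1 and Igfbp5 lie above every normal kidney in all 10 tumors; normal kidney 9 (N9) and tumor 7 (T7) are named because they stand apart in other measures.

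Igf1 (ENSMUSG00000020053, chromosome 10, 87858265 to 87937042, plus strand, GRCm38) encodes the ligand that drives postnatal growth. Its level ran from 6.693 to 14.61 CPM in normal kidneys (median 9.023) and from 22.08 to 144.8 CPM in tumors (median 60.32). All 10 tumors lay above every normal kidney, a separation that 5.87% of all genes tested showed. The fold change was 7.26 (log2 2.86 ± 0.30 SE, adjusted p = 1.07e-07). Tumors also spread more widely than normal kidneys: the mean was 70.31 ± 41.03 CPM (SD, n = 10) against 9.681 ± 2.364 CPM. Tumor 6 had the highest level, followed by tumor 3 at 120.7 CPM and tumor 5 at 98.82 CPM, while tumor 9 was lowest. Igf1os, an antisense gene that overlaps Igf1, had at most 7 counts in a tumor.

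Macrophages are a known source of IGF1, and 7 of 10 macrophage marker genes were called higher in tumors, against 23.6% of all genes tested. No marker on that list was at 0 in a group. Their summed level was 297.2 to 1808 CPM in tumors and 161.1 to 509.8 CPM in normal kidneys. Across tumors the sums and Igf1 did not share their extremes. Tumor 7, with the highest macrophage sum, had 66.34 CPM of Igf1, and tumor 9, with 835.0 CPM of macrophage markers, had the lowest Igf1 level. Tumor 6 had the highest Igf1 level with a macrophage sum of 477.9 CPM. The part of macrophages in the Igf1 difference was not tested.

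Igf2 (ENSMUSG00000048583, chromosome 7, 142650766 to 142666816, minus strand) was at or near 0 in tumors and uneven in normal kidneys. It had 0 counts in 7 tumors and between 0 and 8 counts in all 10, and a count of 0 allows up to 0.171 CPM in the tumor least deeply covered. The other tumors were tumor 7 at 0.3415 CPM, tumor 9 at 0.08162 CPM and tumor 5 at 0.05536 CPM. Normal kidneys fell into a low and a high set. Normal kidneys 7, 8 and 9 had 0 counts, and normal kidneys 1 and 10 were at 0.1132 and 0.1041 CPM. Normal kidneys 2 to 6 were at 7.13, 10.49, 11.07, 2.479 and 14.9 CPM, above every tumor. The means of log2 CPM differed between the groups by a two-sided permutation test (p = 0.0137, n = 10 each), while 5 of 10 normal kidneys overlapped the range of the tumors. Without the filter on low counts, Igf2 entered the fit and was called lower in tumors (edgeR, adjusted p = 0.000394). Igf2os, an antisense transcript that overlaps Igf2, reached 42 counts in a normal kidney and 2 in a tumor, and without stated strand use its reads cannot be kept apart from those of Igf2.

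Igf1r (ENSMUSG00000005533, chromosome 7, 67952827 to 68233668, plus strand), the receptor gene, was expressed at a similar range in both groups. Its level was 72.46 to 239.4 CPM in normal kidneys (median 175.5) and 88.11 to 252.8 CPM in tumors (median 181.9). The log2 fold change was 0.11 ± 0.19 SE (adjusted p = 0.672), and its sign turned under 3 alternative scalings. The lowest library of each group was one that stood apart: normal kidney 9 at 72.46 CPM and tumor 7 at 88.11 CPM. Igf1r has 16791 bases in the table's gene models, and the longest genes read low in normal kidney 9. Without both libraries the log2 fold change was 0.08 (adjusted p = 0.662).

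The binding protein genes split into 3 that were higher in tumors, 3 that were lower and Igfbp6, which did not pass. Over all genes tested, 23.6% were called higher and 23.8% lower. The binding protein genes include 2 pairs of neighbours that lie tail to tail. Igfbp1 and Igfbp3 are 3539 bases apart on chromosome 11 and both were called higher. Igfbp2 and Igfbp5 are 5457 bases apart on chromosome 1 and were called in opposite directions, Igfbp2 lower and Igfbp5 higher.

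The bases before the start sites of these pairs and of Igfbp7 are shown because VHL, the product of an edited gene, marks hypoxia-inducible factors (HIF) for destruction, and HIF binds elements with the core ACGTG or GCGTG. Each sequence is the 250 bases before a RefSeq start on GRCm38.p6, read 5′ to 3′ on the gene's strand; all 10 genes had an entry. Capitals mark ACGTG or GCGTG on either strand. Of 32851 promoters of this length, 16.6% hold ACGTG, 28.2% GCGTG and 38.6% at least 1 of them.
Igfbp1 (chr11:7197537-7197786, plus strand): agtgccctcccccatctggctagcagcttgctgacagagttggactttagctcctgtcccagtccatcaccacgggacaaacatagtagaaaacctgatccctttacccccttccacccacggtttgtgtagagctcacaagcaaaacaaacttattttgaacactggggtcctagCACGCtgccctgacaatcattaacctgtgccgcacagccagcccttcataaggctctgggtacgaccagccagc
Igfbp3 (chr11:7213924-7214173, minus strand): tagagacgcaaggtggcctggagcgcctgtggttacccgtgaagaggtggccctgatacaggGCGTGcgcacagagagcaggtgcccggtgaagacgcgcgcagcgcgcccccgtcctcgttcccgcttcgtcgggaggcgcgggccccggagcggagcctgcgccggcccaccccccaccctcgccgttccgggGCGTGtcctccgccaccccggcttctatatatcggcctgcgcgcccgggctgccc
Igfbp2 (chr1:72824230-72824479, plus strand): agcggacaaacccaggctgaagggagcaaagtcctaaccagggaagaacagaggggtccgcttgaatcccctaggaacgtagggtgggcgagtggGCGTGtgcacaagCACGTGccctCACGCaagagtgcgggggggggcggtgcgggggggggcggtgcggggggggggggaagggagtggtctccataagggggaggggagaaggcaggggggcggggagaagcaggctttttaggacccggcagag
Igfbp5 (chr1:72874866-72875115, minus strand): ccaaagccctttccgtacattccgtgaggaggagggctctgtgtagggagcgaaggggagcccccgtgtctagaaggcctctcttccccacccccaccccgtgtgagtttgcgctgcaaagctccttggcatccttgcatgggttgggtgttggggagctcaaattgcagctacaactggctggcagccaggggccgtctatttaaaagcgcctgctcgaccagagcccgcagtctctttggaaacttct
Igfbp7 (chr5:77408046-77408295, minus strand): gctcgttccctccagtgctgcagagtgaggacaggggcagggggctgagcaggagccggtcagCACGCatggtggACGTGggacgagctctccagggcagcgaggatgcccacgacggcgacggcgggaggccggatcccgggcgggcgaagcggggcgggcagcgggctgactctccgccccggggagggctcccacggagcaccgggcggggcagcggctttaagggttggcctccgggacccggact

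Igfbp1 had 1 GCGTG match and Igfbp3 had 2. Igfbp5, with the higher fold change of the neighbours on chromosome 1, had none in this window. Igfbp2, called lower, had 2 of each before the start shown and none before its second RefSeq start, 884 bases from the gene start of the table; the ACGTG matches are both strands of the palindrome CACGTG. Igfbp7, also called lower, had 1 of each. Outside those shown, Igfbp4 and Igfbp6 had none, Igf1 had 1 GCGTG and Igf1r had 3. The RefSeq starts used for Igf1, Igf1r and Igfbp6 lay 2846, 570 and 176 bases from the starts of the counted genes. Igf2 has 4 RefSeq starts, of which 1 had an ACGTG match and 3 had none. Matches stood before genes called in both directions and before Igf1r, which did not pass the test. Of all promoters of this length, 38.6% hold at least 1. Bases outside the window were not searched, and the part of HIF in these levels was not tested. A match is letters in a window and no measured site.

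Igfbp5 (ENSMUSG00000026185, chromosome 1, 72857932 to 72874884, minus strand) encodes a binding protein that also attaches to matrix. Normal kidneys held 156 to 453.9 CPM (median 367.3) and tumors 590.5 to 4890 CPM (median 2693). All 10 tumors lay above every normal kidney, as for 5.87% of all genes tested. The fold change was 7.13 (log2 2.83 ± 0.37 SE, adjusted p = 2.44e-06). Tumors 7, 9 and 5 formed the low end at 590.5, 664.2 and 706.5 CPM, and the other tumors lay at 1643 CPM or above, with tumor 3 highest.

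Igfbp1 (ENSMUSG00000020429, chromosome 11, 7197782 to 7202546, plus strand) encodes a binding protein that liver makes in fasting and that low oxygen can induce. It ran from 3.944 to 70.82 CPM in normal kidneys (median 22.35) and from 36.33 to 270.3 CPM in tumors (median 149.5). Of the tumors, 7 lay above every normal kidney. The highest normal kidney was kidney 9, and the next was normal kidney 6 at 44 CPM. Igfbp1 with 1525 bases belongs to the short genes that read high in normal kidney 9. Summed hepatocyte markers were also highest there, at 1199 CPM against at most 273.5 CPM in the other normal kidneys. The part of gene length or of liver cells in its level was not tested. The fold change was 5.67 (log2 2.50 ± 0.43 SE, adjusted p = 6.55e-05). Without normal kidney 9 the log2 fold change was 2.78 (adjusted p = 1.56e-05). The lowest tumor was tumor 7, followed by tumor 3 at 60.18 CPM and tumor 2 at 62.35 CPM.

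Igfbp3 (ENSMUSG00000020427, chromosome 11, 7206086 to 7213923, minus strand), which encodes the main carrier of IGF1 in blood, differed less. Levels were 74.17 to 422.7 CPM in normal kidneys (median 214.6) and 262.5 to 812.3 CPM in tumors (median 360.6), so the groups overlapped. The log2 fold change was 0.85 ± 0.25 SE (adjusted p = 0.00888), and 3 tumors lay above every normal kidney. Tumor 9 was highest. It also had the highest sum of endothelial markers, 1566 CPM against 537.7 to 1281 CPM in the other tumors and 767.4 to 1080 CPM in normal kidneys. Of 12 endothelial markers, 1 was called higher and 4 lower, against 23.6% and 23.8% of all genes tested, and none was at 0. Without tumor 9 the log2 fold change of Igfbp3 was 0.69 (adjusted p = 0.0216), and the part of endothelial cells was not tested.

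Igfbp2 (ENSMUSG00000039323, chromosome 1, 72824503 to 72852474, plus strand), a binding protein of fetal tissue and of adult liver and kidney, fell in tumors. Normal kidneys held 6.281 to 30.38 CPM (median 18.76). Tumors held 0.285 to 17.16 CPM, with a median of 0.5956 CPM. Among all genes tested, 4.74% had every tumor below every normal kidney, and Igfbp2 did not. Of the tumors, 8 lay below every normal kidney. The exceptions were tumor 7 at 17.16 CPM and tumor 9 at 7.305 CPM. The log2 fold change was -2.58 ± 0.70 SE (adjusted p = 0.00472), and without tumor 7 it was -3.67 (adjusted p = 2.24e-05).

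Tumors 7 and 9 also had the highest sums of fibroblast and mural cell markers among tumors, 8816 and 949.9 CPM. In normal kidneys these sums ran from 380.7 to 1757 CPM, with normal kidney 7 highest. Of the 10 markers, 1 was called higher and 1 lower, against 23.6% and 23.8% of all genes tested, and none was at 0. The plot of 3 binding protein genes against this sum shows the positions of these libraries; the part of stromal cells in the levels was not tested.

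**Figure D2:**
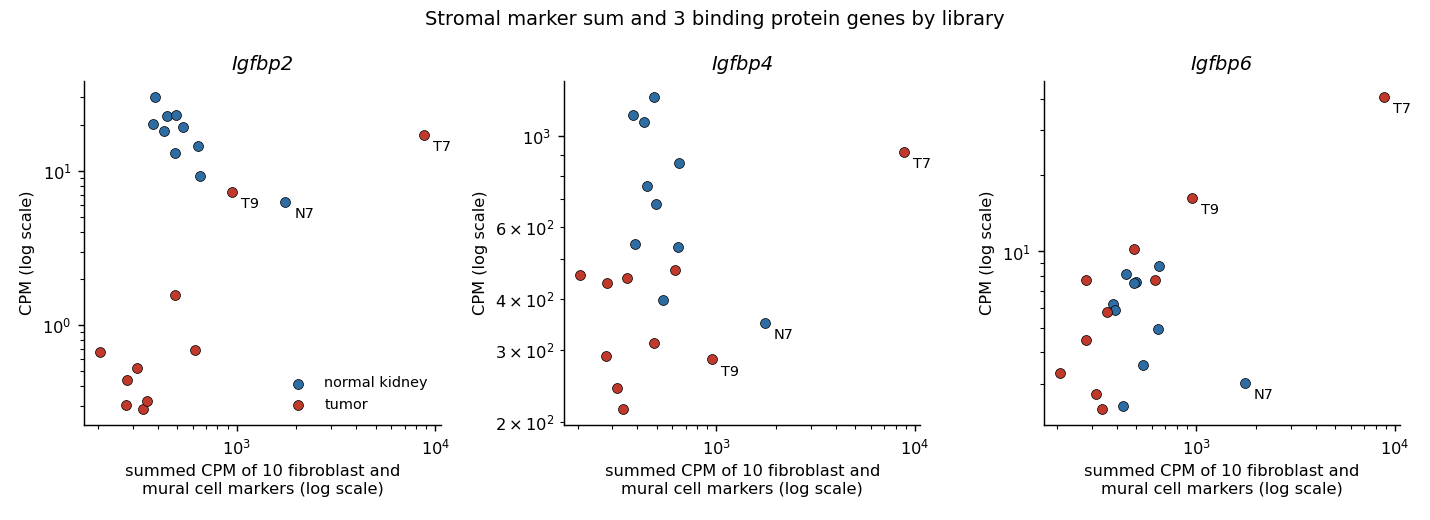
CPM of Igfbp2, Igfbp4 and Igfbp6 (vertical, log scale) against the summed CPM of 10 fibroblast and mural cell markers (horizontal, log scale), 1 point per library. Tumor 7 (T7) lies far to the right at 8816 CPM and holds the highest tumor level of each gene. It is the lowest tumor for Igfbp1 and Igfbp5, which are not plotted (36.33 and 590.5 CPM). Normal kidney 7 (N7), with the highest sum of the normal kidneys, holds their lowest Igfbp2 and Igfbp4, 6.281 and 350.2 CPM, and 3.031 CPM of Igfbp6. Tumor 9 (T9) is also named.

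Igfbp7 (ENSMUSG00000036256, chromosome 5, 77349240 to 77408041, minus strand), the vessel and matrix protein, was lower in tumors. It ran from 811.4 to 3752 CPM in normal kidneys (median 1324) and from 520 to 978.2 CPM in tumors (median 626). Of the tumors, 8 lay below every normal kidney; tumors 7 and 9, the other two, overlapped normal kidney 7 alone. The log2 fold change was -1.18 ± 0.22 SE (adjusted p = 0.000155). Normal kidney 9 was far above the rest, whose highest was 1522 CPM, and Igfbp7 with 1209 bases belongs to the short genes that read high in that library. Without it the log2 fold change was -0.93 (adjusted p = 2.01e-05). The gene overlaps Polr2b on the opposite strand, which had up to 2020 counts in a library against 9244 to 59706 counts of Igfbp7.

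Igfbp4 (ENSMUSG00000017493, chromosome 11, 99041244 to 99054392, plus strand), a binding protein that mainly restrains IGF action, was lower in tumors by less. Normal kidneys ran from 350.2 to 1247 CPM (median 719.6) and tumors from 215.4 to 913.8 CPM (median 374.8), with 5 tumors below every normal kidney. The log2 fold change was -0.90 ± 0.27 SE (adjusted p = 0.00975). Tumor 7 was again the highest tumor, at 913.8 CPM against 470 CPM in the next. Without it the log2 fold change was -1.12 (adjusted p = 0.000599).

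Igfbp6 (ENSMUSG00000023046, chromosome 15, 102144362 to 102149511, plus strand), which prefers IGF2 over IGF1, did not pass the test. Levels were 2.451 to 8.8 CPM in normal kidneys (median 6.05) and 2.394 to 40.77 CPM in tumors (median 6.745). The log2 fold change was 0.81 ± 0.44 SE (adjusted p = 0.139). It rested on tumor 7, at 40.77 CPM, and was 0.21 (adjusted p = 0.622) without it. Tumor 9 was next at 16.28 CPM.

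Normal kidneys differed among themselves as well. Normal kidneys 5, 7 and 8 had summed tubule injury markers of 39640, 54880 and 29550 CPM, and the other normal kidneys 2494 to 4938 CPM. The same libraries had the lowest Igfbp5 of the normal kidneys, 171.3, 156 and 254.5 CPM, and the lowest Igfbp4, 397.2, 350.2 and 536.5 CPM. Igfbp3 was uneven among them: normal kidney 5 was the highest normal kidney at 422.7 CPM and normal kidney 7 the lowest at 74.17 CPM. The part of tubule injury in these levels was not tested.

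To compare genes with each other, CPM was divided by gene length in kilobases (RPKM). In normal kidneys the order was Igfbp7 (1262 ± 666.5 RPKM, SD, n = 10), Igfbp4 (171.7 ± 71.14), Igfbp3 (73.19 ± 31.9), Igfbp5 (55.82 ± 18.17), Igfbp1 (17.64 ± 12.35), Igf1r (9.927 ± 3.067), Igfbp2 (9.571 ± 3.859), Igfbp6 (5.227 ± 2.021), Igf1 (0.9775 ± 0.2387) and Igf2 (0.8089 ± 1.004). Igfbp7 was above Igfbp4 in all 10 normal kidneys, but Igfbp3 was above Igfbp5 in only 4 and Igf1r above Igfbp2 in 5, so those neighbours were not ordered. In tumors Igfbp7 still had the highest mean (558.8 ± 129.4 RPKM), and Igfbp5 (398.2 ± 242.9) took the second place, although it was below Igfbp7 in 7 of 10 tumors. Then came Igfbp3 (132.1 ± 51.27), Igfbp1 (99.83 ± 54.91) and Igfbp4 (92.28 ± 45.77), whose order held in 7 and 6 of 10 tumors for the respective neighbours. Igf1r (10.7 ± 2.677), Igfbp6 (9.12 ± 10.38), Igf1 (7.099 ± 4.143), Igfbp2 (1.585 ± 2.945) and Igf2 (0.008361 ± 0.01873) followed, and Igfbp6 was above Igf1 in 5 tumors.

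The makeup of binding protein RNA shifted from Igfbp7 towards Igfbp5 and Igfbp1. Igfbp7 made up 78.18 ± 4.55% (SD, n = 10) of the summed RPKM of the 7 genes in normal kidneys and 43.85 ± 10.33% in tumors, and all 10 tumors were below every normal kidney. Igfbp5 rose from a share of 3.75 ± 1.26% to 29.74 ± 16.11% and Igfbp1 from 1.03 ± 0.42% to 7.92 ± 4.54%, each with all 10 tumors above every normal kidney. These shares follow from the levels already given and were not tested. Igfbp7 led in all 10 normal kidneys and in 7 tumors, and Igfbp5 led in tumors 2, 3 and 4. Tumors 7, 9 and 5 had the highest Igfbp7 shares, at 61.43%, 57.75% and 53.6%. Without division by length, the longer Igfbp5 made up 53.83%, Igfbp7 18.63% and Igfbp1 4.05% of the tumor mean, and for Igfbp1 only 7 tumors then lay above every normal kidney.

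**Figure D3:**
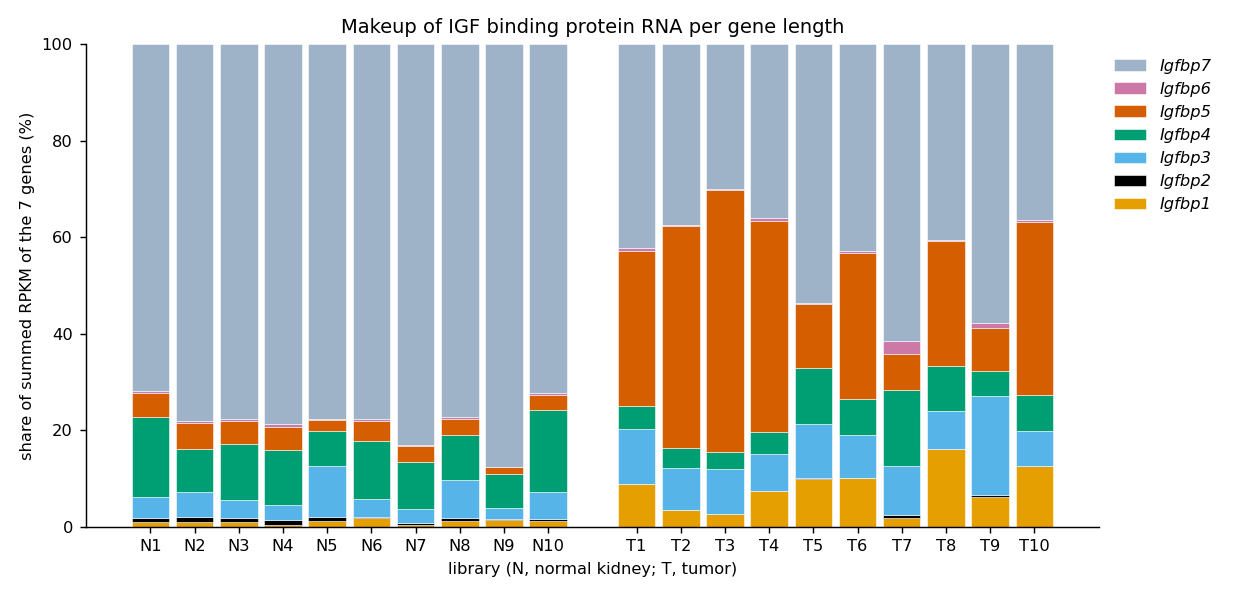
Share of each binding protein gene in the summed RPKM of Igfbp1 to Igfbp7 (percent), 1 bar per library (N, normal kidney; T, tumor). Igfbp7 makes up 71.98% to 87.53% in normal kidneys and 29.98% to 61.43% in tumors, where Igfbp5 reaches 54.31% in tumor 3.

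Summed over the high-affinity genes Igfbp1 to Igfbp6, the level was 733.1 ± 206.8 RPKM in tumors and 333.2 ± 96.14 RPKM in normal kidneys. The sum of all 7 was 1292 ± 199.2 RPKM in tumors and 1595 ± 726 RPKM in normal kidneys, within the spread of the latter. Normal kidney 9, where short genes read high, had the highest sum at 3546 RPKM. The medians were 1345 RPKM in tumors and 1436 RPKM in normal kidneys. Ligand RNA, Igf1 and Igf2 together, was 7.108 ± 4.141 RPKM in tumors and 1.786 ± 1.149 RPKM in normal kidneys. The ratio of Igfbp1 to Igfbp6 over the ligands ranged from 41.58 to 237.2 in tumors and from 89.01 to 590.6 in normal kidneys, overlapping ranges.

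Around these genes, 46 pathway genes were followed in 7 lists, of which 40 could be tested. Of those, 13 were called higher, 9 lower and 18 did not pass, with a median log2 fold change of 0.02 against -0.02 over all genes tested. Read against the 23.6% and 23.8% of all genes called higher and lower, the count of lower pathway genes was near its background. The count of higher genes was not tested against its background. It was 11 with upper quartile factors and 17 with quality weights, and the lists were chosen with earlier results of these data known.

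**Figure D4:**
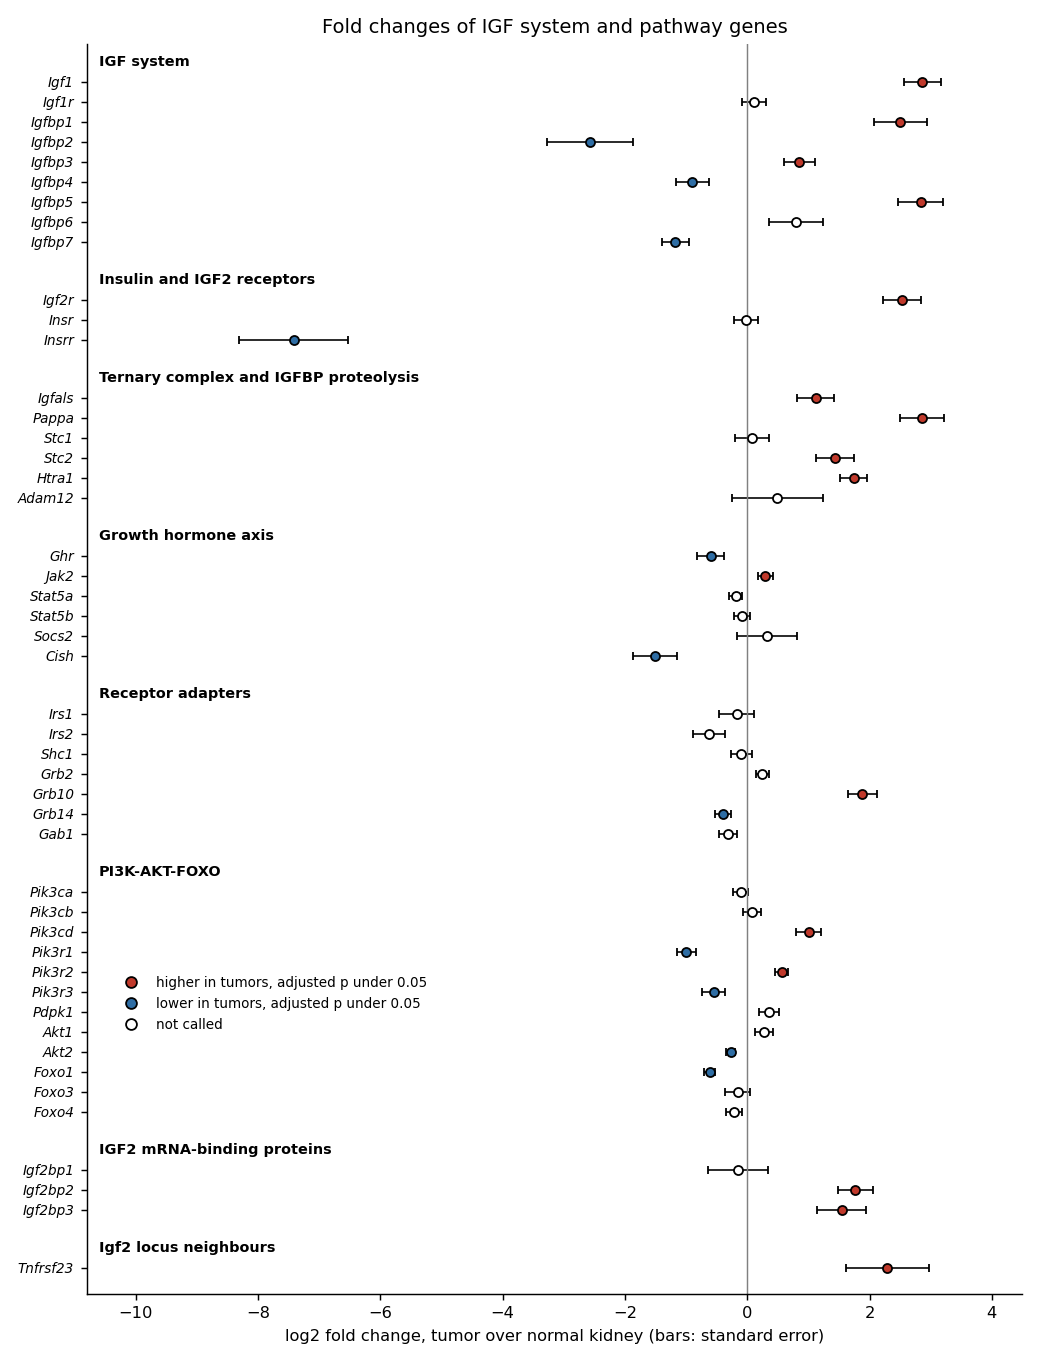
Log2 fold change of tumors over normal kidneys for the 9 IGF system genes tested and the pathway genes reported, with the standard error as bars. Filled points passed an adjusted p under 0.05, red for higher and blue for lower in tumors; Igf2r, Pappa and Igf1 lie near the right end and Insrr alone at -7.42.

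Among the related receptors, Igf2r rose and Insrr fell. IGF2R binds IGF2 and carries it, with lysosomal enzymes, to lysosomes. It was at 26.71 to 188.7 CPM in normal kidneys and 227.9 to 1338 CPM in tumors, with all 10 tumors above (log2 fold change 2.53 ± 0.31 SE, adjusted p = 7.38e-07). Such a separation was seen for 5.87% of all genes tested. Insrr, an alkali-sensing receptor of collecting duct cells, was at 1.339 to 40.8 CPM in normal kidneys and at 0 to 0.6156 CPM (at most 11 counts) in tumors (log2 fold change -7.42, adjusted p = 6.89e-07). Beside it, 7 of 7 collecting duct markers tested were called lower in tumors, against 23.8% of all genes tested. The insulin receptor gene Insr did not pass (-0.02 ± 0.19 SE, adjusted p = 0.934).

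Of the genes for the ternary complex and for cleavage of the binding proteins, 4 of 6 tested were higher and none lower. Among all genes tested, 23.6% were called higher and 23.8% lower. Pappa encodes pappalysin 1, the metalloprotease that cuts IGFBP4 and IGFBP5. It was at 3.708 to 37.23 CPM in normal kidneys and 21.26 to 238.8 CPM in tumors, with 9 tumors above every normal kidney (log2 fold change 2.85 ± 0.36 SE, adjusted p = 1.38e-06). Htra1, a secreted serine protease that cuts IGFBP5, was at 42.98 to 165.5 CPM in normal kidneys and 182.8 to 492.8 CPM in tumors, all 10 above (1.74 ± 0.22 SE, adjusted p = 1.46e-06). Every tumor lay above every normal kidney for 5.87% of all genes tested. Stc2, an inhibitor of pappalysins (1.44, adjusted p = 0.000637), and Igfals, the acid-labile subunit that joins IGF1 and IGFBP3 in blood (1.12, adjusted p = 0.00431), also rose. Stc1 (0.07, adjusted p = 0.852) and Adam12 (0.49, adjusted p = 0.614) did not pass, and Pappa2 was below the filter. The sign for Adam12, a metalloprotease gene, rested on tumor 7 at 72.23 CPM: its log2 fold change was -1.13 (adjusted p = 0.079) without that library and -1.27 (adjusted p = 0.0423, called lower) without normal kidney 9 as well.

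In the growth hormone axis 1 of 6 genes was called higher and 2 lower, where 23.6% and 23.8% of all genes tested were. Cish, a feedback inhibitor that STAT5 switches on, was lower (log2 fold change -1.51, adjusted p = 0.00186), with 6 tumors below every normal kidney. The receptor gene Ghr (-0.60, adjusted p = 0.0319) and the kinase gene Jak2 (0.30, adjusted p = 0.0478) were near the threshold, and each lost its call without normal kidney 9 and under other settings. Stat5a, Stat5b and Socs2 did not pass.

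Of 7 receptor adapter genes tested, Grb10 rose and Grb14 fell, where 23.6% and 23.8% of all genes tested were called higher and lower. GRB10, an adapter that binds the insulin and IGF1 receptors and dampens their signal, had an RNA level of 14.01 to 78.98 CPM in normal kidneys and 105.3 to 285.9 CPM in tumors, all 10 above (log2 fold change 1.88 ± 0.24 SE, adjusted p = 1.41e-06). A separation of this kind was seen for 5.87% of all genes tested. Grb14, a related adapter, was at 16.71 to 28.7 CPM in normal kidneys and 11.19 to 21.41 CPM in tumors (-0.39, adjusted p = 0.0124). Irs1, Irs2, Shc1, Grb2 and Gab1 did not pass, although Irs2 (-0.62, adjusted p = 0.0609), Grb2 and Gab1 did under some other settings. Irs4 was below the filter, with no count in any tumor and at most 1 count in a normal kidney.

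Among 14 genes of the PI3K, AKT and FOXO step, 3 were higher and 5 lower, where 23.6% and 23.8% of all genes were. The regulatory subunit genes of PI3K split, with Pik3r1 (-0.99, adjusted p = 2.73e-05) and Pik3r3 (-0.55, adjusted p = 0.0204) lower and Pik3r2 (0.57, adjusted p = 0.000153) higher. Pik3cd, the catalytic subunit gene most used by leukocytes, was higher (1.01, adjusted p = 0.000319). Foxo1, a transcription factor that AKT keeps out of the nucleus, was at 41.35 to 64.49 CPM in normal kidneys and 24.03 to 37.84 CPM in tumors, all 10 below (-0.62, adjusted p = 2.15e-05). Akt2 was also lower (-0.27, adjusted p = 0.00571), with all 10 tumors below every normal kidney, and Akt1 did not pass (0.28, adjusted p = 0.116). Over all genes tested, 4.74% had every tumor below every normal kidney.

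Of the genes for proteins that bind Igf2 mRNA, Igf2bp2 (log2 fold change 1.77, adjusted p = 3.70e-05) and Igf2bp3 (1.54, adjusted p = 0.00317) rose while Igf2bp1 did not pass. Over all genes tested, 23.6% were called higher. Igf2bp2 was at 28.73 to 60.93 CPM in tumors and 4.776 to 34.41 CPM in normal kidneys; Igf2bp3 stayed at no more than 3.764 CPM. Of the genes listed as neighbours of Igf2, H19, Igf2os, Ins2 and Th were below the filter. Tnfrsf23, the farthest of them from Igf2 (chromosome 7, 143665809 to 143685872), was higher (2.29, adjusted p = 0.0087). Only 2 tumors lay above every normal kidney, whose highest was 41.45 CPM, and tumor 7 was at 126.7 CPM. H19, the noncoding RNA expressed from the other parental copy, was at 0 to 0.323 CPM in normal kidneys and 0.1107 to 0.8653 CPM in tumors.

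The genes whose levels moved most like each member across the 20 libraries, after each group was centred on its mean, were named by Pearson's r over log2 CPM, as a description. All points share the same 20 libraries and their depth. Igf1 was closest to Sim1 (r = 0.793), and within normal kidneys alone that likeness was 0.406. Igfbp5 was closest to Tyw3 (0.912) and Aifm3 (0.892), with 0.889 and 0.897 when normal kidney 9 and tumor 7 were left out. Igfbp2 was closest to Rcan2 (0.933, and 0.871 without those libraries) and Igfbp6 to Reck (0.938 and 0.886) and Antxr1 (0.929 and 0.856). Igfbp1 was closest to Itih1 (0.846 and 0.8), Igfbp3 to Cd200 (0.765 and 0.761), Igfbp4 to Tnn (0.817 and 0.745) and Igf1r to Zbtb11 (0.938 and 0.898). Igfbp7 was closest to Pkig (0.897), which dropped to 0.631 without normal kidney 9 and tumor 7.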

How the data were processed

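RNA from pulverized frozen tissue was made into poly(A) libraries and sequenced as read pairs by a company. The authors deposited its gene counts (54532 genes, 20 libraries) without normalization; the labels name mm10, and gene positions match build 38. The aligner, the counter and the use of strand are not given in the sources used here. Groups came from sample titles. Genes and lists were chosen with earlier results of these data known, and all 10 members and 46 pathway genes could be named; 2 pathway genes are counted but not reported here.

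Counts were scaled by TMM and tested with edgeR 4.0.16 (R 4.3.3): quasi-likelihood test, all 20 libraries, no covariate, count minimum 10, Benjamini-Hochberg adjustment over 15354 genes, threshold 0.05. Log2 CPM used a prior count of 2. Permutation tests were two-sided with 100000 resamples. RPKM used the table's gene lengths. The test was checked on simulated data. Alternatives were other scalings, no filter, DESeq2 1.42.0, limma-voom (limma 3.58.1), a replicate block and leaving out libraries; 1, without normal kidney 9 and tumor 7 together, was chosen after seeing the data. The limit given for a count of 0 covers counting error only. SDs and SEs include the variation between these libraries. P-values weigh the difference between groups against that variation.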

Additional observations from a re-analysis of the deposited data

Results flagged for a closer look

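Of the 20 gene and group sets of log2 CPM values, 2 had a library far from the other 9 of its group; chance flags about 1 in 20 such sets. Igf2 in tumors was highest in tumor 7, at -1.18 log2 CPM (8 counts), with a gap to the next tumor of 0.598 of the group's range; 7 of the other tumors had 0 counts. Igfbp7 in normal kidneys was highest in normal kidney 9, at 11.87 log2 CPM, with a gap of 0.589 of the range. In that library short genes read high, and Igfbp7 is a short gene; the part of this in its level was not tested.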

How the results depend on the processing

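The 7 calls among the 9 tested genes kept their direction and their side of the threshold under every alternative run, including DESeq2, each library left out in turn and normal kidney 9 and tumor 7 left out together. With no filter Igf2 was also called, which made 4 genes lower. Igf1r, not called, turned to -0.016 with upper quartile factors, -0.055 with library totals and -0.075 with limma-voom after quantile normalization, and Igfbp6 turned to -0.28 with quality weights; the cause was not tested. The size of the Igfbp2 change depended most on the setting, from -4.85 with quality weights to -2.43 without tumor 6. Of the pathway genes, 17 were higher and 15 lower with quality weights (13 and 9 in the main test), when all genes gave 5337 higher and 5407 lower calls against 3631 and 3661. Upper quartile factors and library totals moved the median of all genes from -0.021 to -0.137 and -0.141, and the share of calls that were higher from 49.8% to 39.2% and 38.5%; pathway calls were then 11 higher and 13 lower, and 11 and 12. As shares of counts not divided by length, Igfbp5 took 53.83%, Igfbp7 18.63% and Igfbp4 11.72% in the tumor mean.

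Both groups carry the numbers 1 to 10, and no source says that a number marks a mouse. Same-numbered libraries correlated between -0.143 and 0.377, with 9 of 10 pairs over 0.1 and 8 of 10 tumors closest to their own number. With these numbers as a replicate block, members gave 4 higher and 3 lower calls and pathway genes 16 and 9: Grb2 (adjusted p = 0.0151), Akt1 (0.0289) and Pdpk1 (0.0499) joined the higher genes, Irs2 (0.0209) the lower, and Ghr (0.126) lost its call.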
